A study of Homo sapiens with 18 samples.

Results

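LNCaP-abl cells without hormone were set against LNCaP cells under androgen, to see which parts of the hormone-driven expression state the androgen-independent line holds on its own. LNCaP is a human prostate cancer line that depends on androgen, and LNCaP-abl is a single line derived from it that grows without androgen. The comparison used 6 of the 18 arrays of the study: 3 of LNCaP-abl and 3 of LNCaP. They were chosen by their labels alone. The LNCaP-abl cells received vehicle, which was ethanol, and the LNCaP cells received the active androgen dihydrotestosterone (DHT) at 10 nM over 24 h. The cells of all 6 arrays carried a control siRNA for 48 h. The growth text describes 48 h in charcoal-stripped serum, which lacks steroids, and it names LNCaP; a routine medium of LNCaP-abl is not given in the sources used here. Line and hormone both differ between the groups, so they cannot be told apart in this contrast. For that reason 3 further arrays, of LNCaP with control siRNA and vehicle, are given beside the values. The same contrast was also available in 6 arrays of cells transfected with siRNA against TRIM24, a chromatin reader and nuclear receptor cofactor; these share no array with the first 6. The remaining 3 arrays, of LNCaP with TRIM24 siRNA and vehicle, served with the DHT arrays of that siRNA to choose DHT-responsive genes. The labels number the replicates without saying that they are separate cultures. The p-values therefore reflect array-to-array spread that may be technical.

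The androgen receptor is a steroid-activated transcription factor. Bound to DHT it enters the nucleus, binds response elements in promoters and enhancers, and recruits cofactors that raise or lower transcription of nearby genes. In luminal prostate cells it drives secreted proteases such as prostate-specific antigen, lipid and polyamine synthesis and protein secretion, and it represses enzymes that inactivate androgen. Prostate cancers that progress under hormone deprivation can grow again with androgen-receptor, cell cycle and other steroid-receptor programs in changed proportions.

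3 sets of promoter sequence illustrate the gene groups that differed most as groups: androgen-induced genes, mitosis genes and interferon-stimulated genes. Each window is the 250 bases before the start of the gene in RefSeq (GRCh38.p14), read 5′ to 3′ on the gene's own strand. The first pair is KLK3, at chr19:50854665-50854914 on the plus strand, and KLK2, at chr19:50873189-50873438 on the plus strand. Capitals mark a match to the core of the androgen response element, searched on both strands as GNACA, 4 free bases and GTNC.
KLK3: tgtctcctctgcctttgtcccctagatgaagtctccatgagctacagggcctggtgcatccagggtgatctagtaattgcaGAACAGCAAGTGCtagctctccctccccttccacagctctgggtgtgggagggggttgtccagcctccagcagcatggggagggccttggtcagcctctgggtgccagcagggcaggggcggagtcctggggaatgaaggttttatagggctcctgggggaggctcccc
KLK2: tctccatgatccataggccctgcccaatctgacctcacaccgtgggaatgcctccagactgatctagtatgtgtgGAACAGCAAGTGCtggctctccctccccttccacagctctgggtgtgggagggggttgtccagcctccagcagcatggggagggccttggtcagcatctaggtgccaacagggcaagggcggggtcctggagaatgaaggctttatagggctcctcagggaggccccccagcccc
The next pair is CCNB2, at chr15:59104896-59105145 on the plus strand, and PRC1, at chr15:90994536-90994785 on the minus strand. Capitals mark TTTGAA, the letters of the cell cycle genes homology region found in many mitotic promoters, on either strand.
CCNB2: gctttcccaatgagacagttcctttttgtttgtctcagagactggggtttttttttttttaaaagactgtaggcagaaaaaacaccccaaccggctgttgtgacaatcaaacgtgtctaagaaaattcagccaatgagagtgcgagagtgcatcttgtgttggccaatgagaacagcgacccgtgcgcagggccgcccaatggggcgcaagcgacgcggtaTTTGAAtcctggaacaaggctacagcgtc
PRC1: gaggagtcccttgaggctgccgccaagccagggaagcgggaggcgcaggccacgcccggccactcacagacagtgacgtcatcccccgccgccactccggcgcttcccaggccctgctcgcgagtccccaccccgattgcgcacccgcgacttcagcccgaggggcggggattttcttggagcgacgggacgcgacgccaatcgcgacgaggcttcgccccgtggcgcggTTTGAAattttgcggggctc
The last pair is IFIT1, at chr10:89392373-89392622 on the plus strand, and ISG15, at chr1:1013247-1013496 on the plus strand. Capitals mark the core of the interferon-stimulated response element, GAAA, 2 free bases and GAAA, on either strand. In IFIT1 both matches lie on the opposite strand, and in ISG15 the matches overlap.
IFIT1: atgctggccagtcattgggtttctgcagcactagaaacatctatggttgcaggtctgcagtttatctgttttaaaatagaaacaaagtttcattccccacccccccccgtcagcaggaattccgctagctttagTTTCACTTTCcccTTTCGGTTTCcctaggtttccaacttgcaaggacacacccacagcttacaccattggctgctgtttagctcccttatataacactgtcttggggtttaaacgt
ISG15: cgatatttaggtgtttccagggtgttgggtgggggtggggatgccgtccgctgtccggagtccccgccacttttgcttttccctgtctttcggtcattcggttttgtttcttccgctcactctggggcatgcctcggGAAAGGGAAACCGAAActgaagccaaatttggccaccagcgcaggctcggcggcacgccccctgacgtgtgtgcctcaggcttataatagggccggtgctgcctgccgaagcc
The androgen response core stood in the windows of 3 of 42 androgen-induced genes and in 1.76% of the windows of all 27305 genes of the table. TTTGAA stood in 18 of 34 mitosis windows against 13.6% of all windows. The interferon core stood in 15 of 25 interferon-stimulated windows against 3.07% of all windows. A match is a run of letters and not a measured binding site, and most androgen response elements known from other work lie in enhancers outside these windows.

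Expression was read as log2 values, in which a difference of 1 is a doubling. Array medians over the study lay between 5.83 and 5.93, and within a group the correlation over probe sets, which depend on each other, was 0.996 to 0.998. No 2 arrays held identical values. The difference between 3′ and 5′ control probe sets of GAPDH, a sign of RNA quality, was 0.556 ± 0.014 (SD, n = 3) in the DHT arrays and 0.56 ± 0.014 (SD, n = 3) in the LNCaP-abl arrays. With TRIM24 siRNA it was higher, at 0.63 ± 0.013 under DHT and 0.641 ± 0.024 in LNCaP-abl (SD, n = 3). The same measure for ACTB was 1.849 under DHT and 1.874 in LNCaP-abl with control siRNA. With TRIM24 siRNA it was 2.186 and 1.986. The part of RNA quality in the differences between the siRNAs was not tested. A level below 5.88, the median of the table, is near the floor of the array, and a difference that ends there can be too small. TRIM24 itself lay at 9.44, 9.6 and 9.55 in the LNCaP-abl arrays and at 10.12, 10.13 and 10.17 in the DHT arrays. With TRIM24 siRNA it lay at 7.45, 7.55 and 7.35 in LNCaP-abl and at 8.09, 8.04 and 7.89 in DHT-treated LNCaP, below every control siRNA array.

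The 2 states differed at most genes. Of 13607 genes tested, 9194 (67.6%) differed by limma at an adjusted p under 0.05; 4513 (33.2%) were higher and 4681 (34.4%) lower in LNCaP-abl. The median size of a called difference was 0.42, and 821 genes (6.03%) were higher and 869 (6.39%) lower by at least 2-fold. At least 16-fold differences were found for 55 genes that were higher and 70 that were lower. On the other side, 8505 genes (62.5%) had a 95% interval of the difference that lay within 0.5 of zero, of which 4132 were also called. These 2 descriptions overlap because arrays of a group were close to each other. Every list of genes below is read against these shares.

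The tissue identity of the line was measured with marker lists. Luminal markers lay at a median level of 9.89 in LNCaP-abl and 11.12 in DHT-treated LNCaP over 13 genes. Of the 13, 3 lay below 5.88 in LNCaP-abl and 0 under DHT. Against DHT, 9 of the 13 were lower in LNCaP-abl and none was higher. Keratins of the luminal layer were among those that fell. KRT8 lay at 9.85, 9.9 and 9.91 in LNCaP-abl against 11.65, 11.64 and 11.58 under DHT, and fell by 1.74 ± 0.04 (SE; limma adjusted p = 3.12e-16). KRT18 fell by 1.26 ± 0.04 (SE; limma adjusted p = 1.86e-14), and the tight junction gene CLDN3 fell by 2.06 ± 0.07 (SE; limma adjusted p = 6.19e-14). Vehicle-treated LNCaP had 10.67, 10.65 and 10.75 for KRT8, between both groups. KLK3 is a member of this list as well as of the androgen-induced list.

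Of the 13 luminal markers 5 had a 95% interval within 0.5 of the DHT level, against 62.5% of all genes. The 4 genes named here, 3 of them from that list and GATA2 from the cofactor list, were chosen with their values in view because they lay close to DHT, and they do not stand for their lists. CDH1, which encodes E-cadherin, differed by -0.05 with a 95% interval of -0.15 to 0.05. HOXB13, the prostate homeobox factor, differed by 0.10 with an interval of 0.01 to 0.19 and did not pass adjustment over all genes (limma adjusted p = 0.0585). FOXA1, a pioneer factor that opens chromatin for the androgen receptor, differed by -0.09 with an interval of -0.19 to 0.02. Averaging the probe sets of each gene gave differences that passed the test, of -0.34 for FOXA1, -0.16 for CDH1 and 0.15 for HOXB13, the most variable probe set of FOXA1 fell by 0.60, and the call of HOXB13 was also made without array 3 of LNCaP-abl or array 1 of DHT (limma adjusted p = 0.032 and 0.0455). GATA2, another pioneer factor, differed by 0.04 with an interval of -0.04 to 0.12.

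Markers of other cell types were mostly dim. Of 17 neuroendocrine markers 10 lay below the filter level in both groups, and of the 7 tested 2 were higher and 1 was lower. ENO2, a neuronal enolase, lay at 8.36, 8.38 and 8.38 in LNCaP-abl and at 7.44, 7.42 and 7.37 under DHT, a rise of 0.96 ± 0.06 (SE; limma adjusted p = 2.19e-10). The vesicle protein SYP differed by 0.03 with an interval of -0.20 to 0.25. Of 10 leukocyte and endothelial markers 7 lay below the filter level in both groups, and their summed level over the 4 tested ran from 24.0 to 25.4 in LNCaP-abl and from 24.0 to 24.7 under DHT. Of 8 basal markers 4 were tested, 3 were higher and 1 was lower. DST, a linker of the cytoskeleton to hemidesmosomes, rose by 2.04 ± 0.04 and ITGA6, a laminin receptor subunit, by 0.94 ± 0.09 (SE). The other probe sets of DST differed by -0.24 to 1.89. Of 12 fibroblast and mesenchymal markers 7 were tested and 3 were higher; the collagen gene COL3A1 rose by 2.09 ± 0.10 (SE; limma adjusted p = 1.09e-11), from below the filter level. The other probe sets of COL3A1 differed by -0.12 to 1.36. The summed level of the 7 tested markers ran from 46.8 to 48.1 in LNCaP-abl and from 44.2 to 44.6 under DHT. The part of other cell types in the results was not tested. In a bulk sample, fewer cells of a type and less RNA per cell cannot be told apart.

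The classical androgen-induced genes were far below their DHT level in LNCaP-abl. Of 51 tested, 46 (90.2%) were lower and 4 were higher, with a median difference of -2.02, where the median of all genes was 0.01. The same genes had a median DHT response of 2.00 in LNCaP with control siRNA, a contrast in which 19.4% of all genes rose, and a median difference of -0.02 between LNCaP-abl and vehicle-treated LNCaP. The DHT arrays are shared by the first 2 of these values and the vehicle arrays by the last 2. Against vehicle-treated LNCaP, 18 of the 51 were higher and 20 lower in LNCaP-abl, where 29.1% and 34.6% of all genes were.

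The kallikrein proteases KLK3 and KLK2 fell far below their DHT level. KLK3 encodes prostate-specific antigen, the serum marker of prostate cancer. It lay at 5.99, 5.35 and 5.78 in LNCaP-abl, at 14.07, 14.16 and 14.12 under DHT and at 8.55, 8.38 and 8.57 in vehicle-treated LNCaP. The LNCaP-abl arrays were thus below both LNCaP groups, and the difference from DHT was -8.41 ± 0.13 (SE; limma adjusted p = 1.16e-17). Since LNCaP-abl was under 5.88, this difference can be too small. KLK2, which encodes a related protease that activates prostate-specific antigen, lay at 5.22, 5.21 and 5.29 in LNCaP-abl and at 10.48, 10.44 and 10.61 under DHT. Its vehicle arrays lay at 5.62, 5.42 and 5.66, so LNCaP-abl and starved LNCaP were both under 5.88, where their order means little; the difference from DHT was -5.27 ± 0.07 (SE; limma adjusted p = 1.08e-18). The sequences of KLK2 and KLK3 are similar, so probes of one can bind RNA of the other. Their promoter windows above hold the same 13 letters at the androgen response core, 157 to 169 bases before the start of KLK3 and 163 to 175 before that of KLK2.

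Membrane proteins and a chaperone of the androgen program ended at different places around the starved level. TMPRSS2, a membrane serine protease, lay at 9.95, 9.94 and 10.01 in LNCaP-abl, at 12.24, 12.22 and 12.28 under DHT and at 9.72, 9.68 and 9.71 with vehicle. It fell by 2.28 ± 0.04 (SE; limma adjusted p = 7.21e-18) against DHT while staying 0.26 above vehicle. FKBP5, a co-chaperone that binds steroid receptors with HSP90, lay at 9.65, 9.73 and 9.71 in LNCaP-abl, at 13.2, 13.18 and 13.17 under DHT and at 9.71, 9.72 and 9.74 with vehicle. Its LNCaP-abl arrays overlapped the vehicle arrays, and the difference from DHT was -3.49 ± 0.04 (SE; limma adjusted p = 8.26e-19). The metalloreductase STEAP4 lay at 4.03, 3.55 and 3.68 in LNCaP-abl and at 10.33, 10.11 and 10.25 under DHT, with vehicle at 3.57, 3.61 and 4.02. The cold-sensing channel TRPM8 lay at 4.86, 5.17 and 5.03 in LNCaP-abl and at 11.95, 11.98 and 11.98 under DHT, with vehicle at 6.16, 6.25 and 6.15. STEAP4 was thus at the starved level and TRPM8 below it; the differences from DHT were -6.48 ± 0.12 and -6.95 ± 0.08 (SE).

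Signalling and transcription genes of the list also fell, most of those named to below the starved level. PMEPA1, an inhibitor of TGF-beta signalling, lay at 6.35, 5.56 and 5.92 in LNCaP-abl, 12.78, 12.84 and 12.81 under DHT and 10.52, 10.4 and 10.55 with vehicle. MAF, a basic leucine zipper transcription factor, lay at 3.41, 3.23 and 3.54 in LNCaP-abl, 11.34, 11.26 and 11.34 under DHT and 8.71, 8.75 and 8.52 with vehicle. For both genes LNCaP-abl was below vehicle by more than DHT was above it, and the differences from DHT were -6.87 ± 0.15 and -7.92 ± 0.10 (SE). The GTPase gene RHOU fell by 3.50 ± 0.05 and the exporter gene ABCC4 by 3.57 ± 0.05 (SE), both to below the vehicle arrays. EAF2, a partner of the ELL elongation factors, fell by 4.38 ± 0.06 (SE) to 6.78, 6.74 and 6.74, inside the range of the vehicle arrays at 6.57, 6.81 and 6.86. Averaging all probe sets gave smaller differences of -1.51 for TMPRSS2, -3.45 for TRPM8 and -3.06 for MAF, all still called.

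The 4 members that were higher are named because so few went that way. IQGAP2, a scaffold protein, lay at 9.57, 9.68 and 9.71 in LNCaP-abl, above its DHT arrays at 9.4, 9.3 and 9.36, a rise of 0.30 ± 0.05 (SE; limma adjusted p = 1.7e-05). MERTK, a receptor tyrosine kinase that clears dying cells, lay at 8.86, 9.06 and 8.88 against 8.41, 8.27 and 8.39, a rise of 0.58 ± 0.11 (SE; limma adjusted p = 0.000157). LNCaP-abl exceeded vehicle-treated LNCaP by 1.93 and 1.74. STEAP2, a metalloreductase, rose by 0.10 ± 0.03 (SE; limma adjusted p = 0.0142) and lost its call in the fit of the 6 compared arrays alone (limma adjusted p = 0.0683), and without array 3 of LNCaP-abl or array 1 of DHT (limma adjusted p = 0.0609 and 0.0576). KLK15, a kallikrein, rose by 0.29 ± 0.11 (SE; limma adjusted p = 0.029), but the mean of its probe sets fell by 0.31. Its call was lost without array 1 or 3 of LNCaP-abl (limma adjusted p = 0.109 and 0.091) or array 1 or 2 of DHT (limma adjusted p = 0.104 and 0.0662). The mean of the probe sets rose by 0.18 for IQGAP2 and 0.34 for MERTK.

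The place of LNCaP-abl between the starved and the stimulated state was then described across all DHT-responsive genes. These were chosen in 6 LNCaP arrays with TRIM24 siRNA: 273 genes (2.01% of those tested) rose and 204 (1.5%) fell by at least 2-fold with DHT there. Those 6 arrays give none of the levels compared, but they share in the estimate of spread behind the calls and intervals. TRIM24 is itself depleted in the arrays that chose the genes. For each gene the 3 LNCaP-abl arrays were placed against the ranges of the 3 vehicle and 3 DHT arrays with control siRNA. This is a description with no test, and a place set by levels under 5.88 in both groups compared means little.

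Of the 273 DHT-induced genes, LNCaP-abl lay beyond the DHT arrays for 18 (6.59%), overlapped them for 2 (0.733%), lay between both groups for 77 (28.2%), overlapped the vehicle arrays for 46 (16.8%) and lay beyond the vehicle arrays for 129 (47.3%). In 1 gene the vehicle and DHT arrays were not separated. Against DHT, 252 (92.3%) of the induced genes were lower and 19 (6.96%) higher in LNCaP-abl, with a median difference of -1.68. The median difference from vehicle was -0.10. Only 12 of the 273 had a 95% interval within 0.5 of the DHT level, where 62.5% of all genes did.

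The 204 DHT-repressed genes were spread more evenly. LNCaP-abl lay beyond the DHT arrays, so lower still, for 49 (24%), overlapped them for 12 (5.88%), lay between for 45 (22.1%), overlapped vehicle for 12 (5.88%) and lay beyond vehicle for 85 (41.7%). In 1 gene the LNCaP groups were not separated. Against DHT, 142 (69.6%) were higher and 46 (22.5%) lower, with a median difference of 0.95, and the median difference from vehicle was -0.18. A level at or beyond that of DHT was thus found for 61 of 204 repressed genes and 20 of 273 induced genes. The difference between these shares was not tested.

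**Figure D1:**
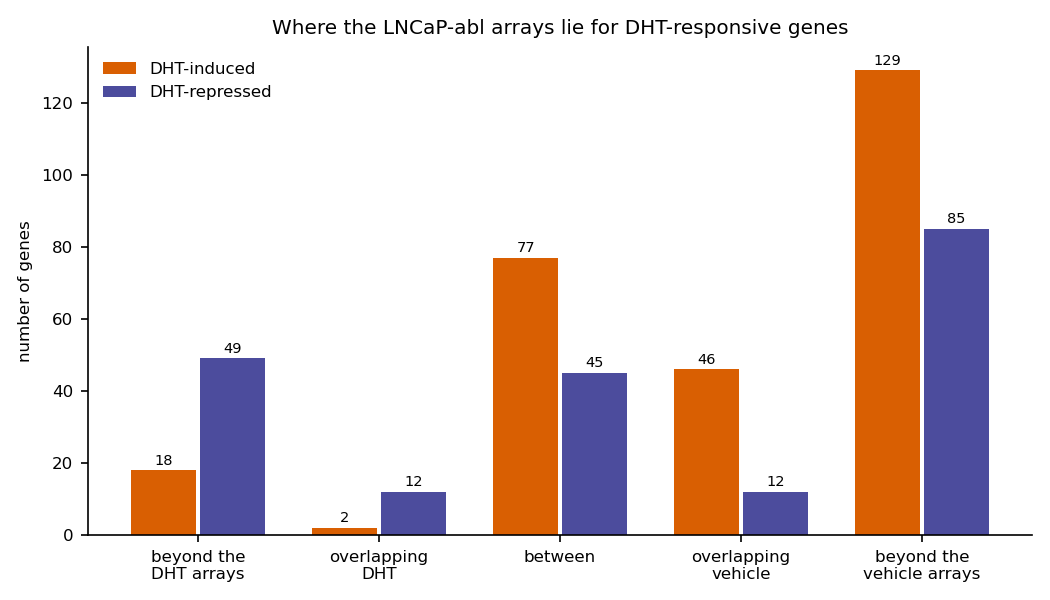
Number of DHT-induced (orange, 273 genes) and DHT-repressed (purple, 204 genes) genes by where the 3 LNCaP-abl arrays lie against the ranges of the vehicle and DHT arrays of LNCaP. The tallest bars are the genes beyond the vehicle arrays, 129 induced and 85 repressed, and the shortest is the 2 induced genes that overlap DHT. The 1 gene of each direction in which the LNCaP groups were not separated is not drawn.

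The genes most induced by DHT were at or below the starved level. SLC38A4, an amino acid transporter, lay at 2.97, 2.83 and 2.58 in LNCaP-abl and at 2.8, 2.73 and 2.82 with vehicle, against 8.63, 8.82 and 8.96 under DHT. SNAI2, a transcription factor of epithelial plasticity, lay at 4.34, 4.42 and 4.23 in LNCaP-abl, below the vehicle arrays at 5.08, 5.26 and 5.43 and the DHT arrays at 10, 9.9 and 10.14. CCDC141, a coiled-coil protein gene, fell by 6.08 ± 0.08 (SE) against DHT and ended at 3.22, 3.29 and 3.27, beyond the vehicle arrays at 3.3, 3.47 and 3.3. All 3 genes end near the floor of the array, where an order between LNCaP-abl and vehicle means little. Averaging probe sets gave -3.52 for SLC38A4 and -3.94 for CCDC141.

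**Figure D2:**
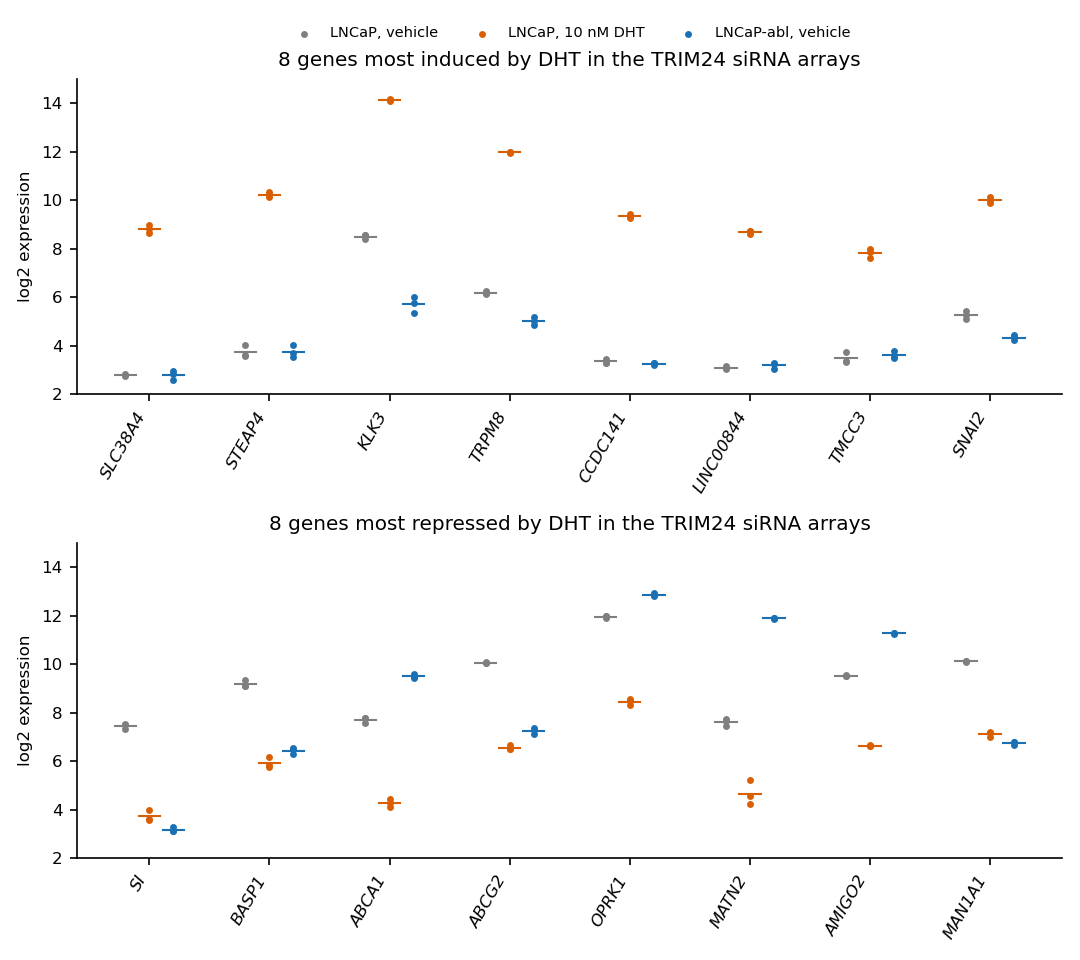
Log2 expression in each array of vehicle-treated LNCaP (grey), DHT-treated LNCaP (orange) and LNCaP-abl (blue) for the 8 genes most induced (top) and the 8 most repressed (bottom) by DHT in the TRIM24 siRNA arrays; points are arrays and short lines are means of 3. In the top panel the blue points lie beside or under the grey ones, while in the bottom panel they lie above grey for ABCA1, OPRK1, MATN2 and AMIGO2 and near orange for SI, BASP1, ABCG2 and MAN1A1.

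Some induced genes were partly or fully held. GREB1, a receptor-induced growth gene, lay at 8.22, 8.31 and 8.23 in LNCaP-abl, between vehicle at 6.97, 7.01 and 6.82 and DHT at 10.06, 9.89 and 10.33, and it fell by 0.89 against DHT when its probe sets were averaged. OTULINL and the peptide transporter SLC15A2 were also between, with differences of 0.36 and 0.79 from vehicle and of -3.61 and -3.50 from DHT. The place of OTULINL depended on the probe set. Another had means of 6.08 in LNCaP-abl, 6.31 with vehicle and 10.10 under DHT, so LNCaP-abl was below vehicle there. A further probe set had 4.86 in LNCaP-abl and 4.83 with vehicle, both near the floor. CTNNA2, an alpha-catenin that links cadherins to actin, was 1 of the 2 that overlapped DHT. It lay at 8.22, 8.18 and 8.17 in LNCaP-abl and 8.12, 8.13 and 8.23 under DHT, with vehicle at 5.5, 5.04 and 4.93. Its difference from DHT was 0.03 with a 95% interval of -0.24 to 0.30. PFKFB2, which sets the level of a glycolytic activator, overlapped DHT with a difference of 0.04, but the mean of its probe sets fell by 0.31. NNT, a mitochondrial enzyme that makes NADPH, exceeded the DHT level at 9.61, 9.66 and 9.76 against 6.51, 6.35 and 6.54, with vehicle at 3.73, 3.57 and 4.6. The carboxypeptidase inhibitor LXN did so at 8.74, 8.77 and 8.66 against 7.39, 7.1 and 6.97. NNT rose by 3.21 ± 0.21 and LXN by 1.57 ± 0.09 over DHT (SE; limma adjusted p = 8.97e-10 and 1.85e-10); the mean of the NNT probe sets rose by 1.83.

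Androgen-repressed genes of the fixed list mostly stood above their DHT level, as 10 of 15 were higher and 2 lower, with a median of 0.48. Among them were the enzymes that attach glucuronic acid to androgens and so inactivate them. UGT2B17 lay at 13.57, 13.54 and 13.78 in LNCaP-abl, at 8.96, 8.93 and 9.11 under DHT and at 11.45, 11.3 and 11.23 with vehicle. UGT2B15 lay at 13.7, 13.74 and 13.71 in LNCaP-abl, at 10.68, 10.66 and 10.7 under DHT and at 13.21, 13.15 and 13.15 with vehicle. Both exceeded the starved level, and the differences from DHT were 4.63 ± 0.07 and 3.04 ± 0.04 (SE; limma adjusted p = 8.85e-18 and 8.35e-19). UGT2B28 rose by 1.44 ± 0.05 (SE), and DHT moved it in LNCaP by 0.12. These genes are near-identical copies and their probes can bind each other's RNA, so the split between them is uncertain.

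OPRK1, the kappa opioid receptor, followed the same course, at 12.81, 12.85 and 12.95 in LNCaP-abl against 8.5, 8.3 and 8.58 under DHT and 11.99, 11.97 and 11.89 with vehicle. It rose by 4.41 ± 0.07 over DHT (SE; limma adjusted p = 1.38e-17). The cholesterol exporter gene ABCA1 lay at 9.42, 9.61 and 9.47 in LNCaP-abl, 4.26, 4.44 and 4.12 under DHT and 7.77, 7.77 and 7.57 with vehicle. AMIGO2, a cell adhesion gene, rose by 4.66 ± 0.05 and MATN2, a matrix protein gene, by 7.22 ± 0.16 over DHT (SE), both also above vehicle. For these genes LNCaP-abl was further from the DHT state than starved LNCaP was. The mean of the probe sets rose by 2.88 for ABCA1 and 3.62 for MATN2.

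Other repressed genes stood near the DHT level without hormone. SI, an intestinal disaccharidase and one of the genes most repressed by DHT in LNCaP, lay at 3.28, 3.14 and 3.13 in LNCaP-abl, 3.98, 3.61 and 3.59 under DHT and 7.48, 7.54 and 7.32 with vehicle. CAMK2N1, an inhibitor of CaM kinase II, lay at 10.71, 10.68 and 10.73 in LNCaP-abl, 10.26, 10.15 and 10.28 under DHT and 12.73, 12.8 and 12.81 with vehicle. BASP1, a membrane-associated signalling protein gene, lay at 6.28, 6.53 and 6.49 against 6.17, 5.77 and 5.85 under DHT, and the drug exporter gene ABCG2 at 7.29, 7.36 and 7.1 against 6.67, 6.51 and 6.51. These 3 were between the LNCaP groups and closer to DHT, with differences of -2.07, -2.75 and -2.81 from vehicle, and SI was below 5.88 both in LNCaP-abl and under DHT, where an order between them means little. Averaging probe sets lowered the difference from DHT to 0.21 for CAMK2N1 and 0.20 for BASP1, and the most variable probe set of CAMK2N1 gave 0.01, which was not called.

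Repressed genes that went well past the DHT level included PEG3, an imprinted zinc finger gene. It lay at 3.61, 3.46 and 3.78 in LNCaP-abl, 9.21, 9.2 and 9.21 under DHT and 11.44, 11.48 and 11.45 with vehicle, so most of its loss was outside the range that DHT spans. BCHE, which encodes butyrylcholinesterase, lay at 4.12, 4.4 and 4.4 in LNCaP-abl, 8.78, 8.53 and 8.78 under DHT and 10.91, 10.79 and 10.83 with vehicle. The amino acid transporter gene SLC6A19 fell by 1.75 ± 0.08 and the mannosidase gene MAN1A1 by 0.36 ± 0.06 (SE; limma adjusted p = 5.46e-12 and 4.28e-05) against DHT. MAN1A1 was thus only just past the DHT level, with means of 6.76 in LNCaP-abl, 7.12 under DHT and 10.12 with vehicle. SLC6A19 fell by 1.12 when its probe sets were averaged.

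Steroid receptors and cofactors showed a single very large change among many small ones. Of 19 tested, 7 were higher and 9 lower with a median of -0.08. An interval within 0.5 was found for 13 of the 19, where 62.5% of all genes had one. NR3C1, the glucocorticoid receptor, lay at 12.2, 12.21 and 12.19 in LNCaP-abl, 5.14, 5.07 and 4.97 under DHT and 5.41, 5.61 and 5.21 with vehicle. It rose by 7.14 ± 0.09 over DHT (SE; limma adjusted p = 1.24e-18), from a level near the floor. The coactivator NCOA2 lay at 11.78, 11.87 and 11.86 against 10.59, 10.59 and 10.64 under DHT and 11.19, 11.17 and 11.05 with vehicle, a rise of 1.23 ± 0.04 (SE). PIAS1, a SUMO ligase that modulates receptors, fell by 1.07 ± 0.05 and GRHL2, an epithelial factor, by 0.78 ± 0.04 (SE). PIAS1 ended 0.04 above its vehicle mean and GRHL2 0.30 above. TRIM24 fell by 0.61 ± 0.05 against DHT (SE; limma adjusted p = 3.97e-08) and differed from vehicle by -0.17.

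Enzymes of androgen synthesis and inactivation were divided, with 8 of 19 higher and 9 lower. Apart from the UGT2B genes, those with the smallest adjusted p were lower. SRD5A1, the steroid reductase that makes DHT from testosterone, lay at 8.45, 8.5 and 8.28 in LNCaP-abl, 9.75, 9.7 and 9.79 under DHT and 9.65, 9.68 and 9.58 with vehicle. STS, which releases steroids from their sulfates, fell by 1.72 ± 0.04 and AKR1C2, which inactivates DHT, by 1.45 ± 0.08 (SE; limma adjusted p = 4.4e-15 and 5.05e-11). All 3 were below vehicle as well, with differences of -1.23, -1.29 and -2.02. AKR1C2 shares sequence with its paralogs and is uncertain for that reason, and STS fell by 0.96 when its probe sets were averaged.

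Most cell cycle genes were higher in LNCaP-abl than in either LNCaP group. Of 40 G2/M and mitosis genes 38 (95%) were higher and 1 was lower, with a median difference of 1.30. Of 36 G1/S and DNA replication genes 25 (69.4%) were higher and 5 lower, with a median of 0.71. DHT itself raised 27 of the 40 and 18 of the 36 in LNCaP, with medians of 0.30 and 0.15, where 19.4% of all genes rose. Against vehicle, 39 of 40 and 30 of 36 were higher in LNCaP-abl, with medians of 1.72 and 0.89, where 29.1% of all genes were.

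The mitosis genes acted at all stages of division. NUSAP1, which bundles spindle microtubules, lay at 9.85, 9.79 and 9.82 in LNCaP-abl, 8.07, 8 and 8.08 under DHT and 7.46, 7.55 and 7.55 with vehicle, a rise of 1.77 ± 0.05 over DHT (SE; limma adjusted p = 4.95e-15). UBE2C, which tags mitotic cyclins for destruction, lay at 9.35, 9.32 and 9.35 against 8.08, 8.05 and 8.02, a rise of 1.29 ± 0.04 (SE; limma adjusted p = 1.79e-14). HMMR, a spindle assembly factor, rose by 2.00 ± 0.07, PRC1, which holds the central spindle together, by 1.89 ± 0.05, and PTTG1, which restrains separase, by 1.48 ± 0.04 (SE). CCNB2, a cyclin that drives entry into mitosis, lay at 9.51, 9.49 and 9.6 against 8.4, 8.27 and 8.39, and AURKB, the kinase that corrects chromosome attachment, at 6.98, 6.92 and 7.02 against 5.85, 5.72 and 5.76. The kinesin KIF20A rose by 1.29 ± 0.04 (SE). The only lower member was CDC25B, a phosphatase that activates mitotic kinases, which fell by 0.23 ± 0.05 (SE; limma adjusted p = 0.000407). The mean of the CCNB2 probe sets rose by 0.49.

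Replication genes rose with them. RRM2, the subunit of ribonucleotide reductase made in S phase, lay at 10.01, 10.05 and 9.98 in LNCaP-abl, 8.56, 8.36 and 8.57 under DHT and 7.25, 7.2 and 7.12 with vehicle. It was already raised by DHT in LNCaP, by 1.31, and rose by a further 1.52 ± 0.06 (SE; limma adjusted p = 1.45e-12). CCNE2, a cyclin of S phase entry, lay at 10.36, 10.19 and 10.39 against 8.27, 8.02 and 8.26, where vehicle was at 8.56, 8.51 and 8.39. The helicase subunit MCM2 rose by 1.18 ± 0.04, the initiation factor GINS1 by 1.69 ± 0.08 and the thymidine kinase TK1 by 1.60 ± 0.06 (SE; limma adjusted p at or below 1.12e-11 for each). The 5 lower members included the kinase CDK6, at 5.54, 5.69 and 5.55 against 7.21, 7.28 and 7.41, and with it CCNE1, CCND1, CDK4 and CDC25A, which fell by 0.37, 0.21, 0.17 and 0.16. CDK6 fell by 0.73 when its probe sets were averaged. CCNE1 lost its call there, and the most variable probe set of CCND1 fell by 0.13. CDC25A lost its call in 5 alternatives of the processing, with adjusted p from 0.0521 to 0.25, and when array 1 or 2 of LNCaP-abl (limma adjusted p = 0.09 and 0.0894) or any DHT array was left out (limma adjusted p = 0.0707, 0.0786 and 0.0737). CDK6 was also the only gene of either cell cycle list among the DHT-responsive genes above.

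The excess of cell cycle genes over DHT was smaller with TRIM24 siRNA. There the median of the mitosis list was 0.34, with 28 of 40 higher and 5 lower, and that of the replication list -0.06, with 13 of 36 higher and 15 lower; of all genes 33.6% were higher and 38.7% lower. Tested as an interaction, the difference moved down for 37 of 40 mitosis genes and 31 of 36 replication genes and up for none, where 14.9% of all genes moved down and 5.66% up. UBE2C rose by 1.29 with control siRNA and by 0.17 with TRIM24 siRNA, an interaction of -1.12 ± 0.05 (SE; limma adjusted p = 1.12e-08). For NUSAP1 the values were 1.77 and 0.57, for RRM2 1.52 and 0.29 and for MCM2 1.18 and 0.29.

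**Figure D3:**
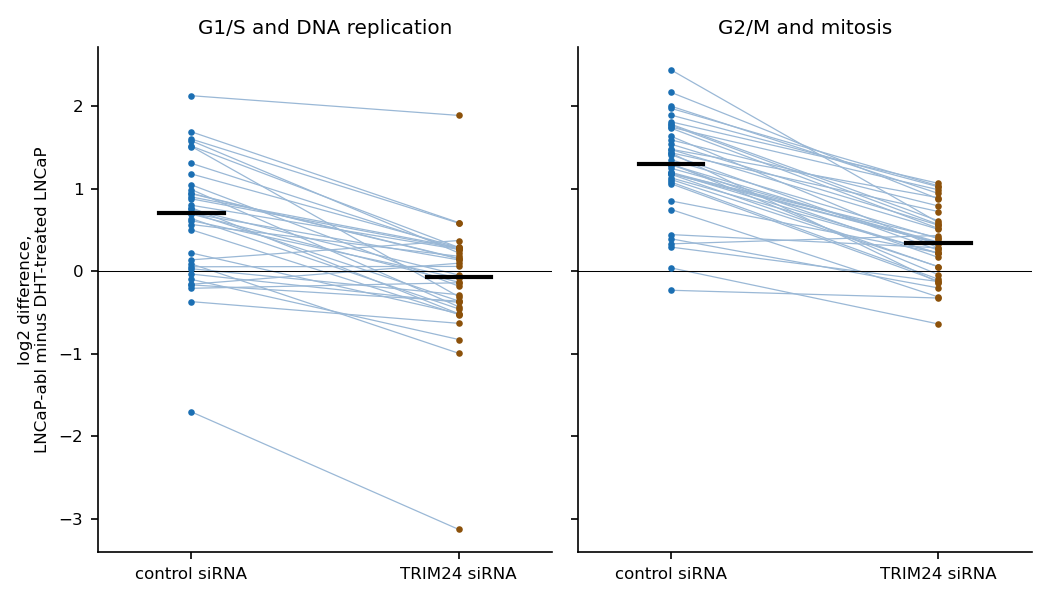
Log2 difference of LNCaP-abl from DHT-treated LNCaP for 36 G1/S and DNA replication genes (left) and 40 G2/M and mitosis genes (right) with control siRNA (blue) and TRIM24 siRNA (brown); lines join the same gene and black bars are medians. The medians move from 0.71 to -0.06 and from 1.30 to 0.34; the line far below the others on the left is CDK6.

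Interferon-stimulated genes were lower in LNCaP-abl. Of 33 tested, 26 (78.8%) were lower and 6 higher, with a median of -1.09. In LNCaP, DHT moved the list by a median of -0.13, with 13 lower and 7 higher, where 26.4% and 19.4% of all genes were. ISG15, a ubiquitin-like modifier, lay at 11.32, 11.18 and 11.24 in LNCaP-abl, 13.24, 13.18 and 13.21 under DHT and 13.24, 13.23 and 13.25 with vehicle. IFIT1, which binds viral RNA, lay at 10.25, 10.2 and 10.21 against 11.96, 12 and 12. The 3 LNCaP-abl arrays were below both LNCaP groups for each, and the differences from DHT were -1.96 ± 0.04 and -1.76 ± 0.05 (SE; limma adjusted p = 2.21e-16 and 6.01e-15).

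The sensors, factors and effectors with the smallest adjusted p were lower, while the 6 higher members of the list reached at most 1.01. The RNA sensor RIGI fell by 1.92 ± 0.05 and IRF9, the DNA-binding part of the interferon-activated complex, by 1.57 ± 0.04 (SE). Of the effectors, OAS1, which makes the activator of RNase L, lay at 6.49, 6.37 and 6.39 against 9.04, 8.96 and 8.97. IFI44 fell by 3.20 ± 0.06, the entry inhibitor IFITM1 by 2.51 ± 0.05 and IFI6 by 2.47 ± 0.05 (SE). IFIT and IFITM family members share sequence, and their split is uncertain. With TRIM24 siRNA 26 of 33 were lower with a median of -0.88, where 38.7% of all genes were lower. The interaction was up for 13 and down for 1, where 5.66% and 14.9% of all genes were. OAS1 fell by 2.57 with control siRNA and by 1.80 with TRIM24 siRNA (interaction 0.77 ± 0.07, SE; limma adjusted p = 8.02e-07).

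Lipid synthesis genes moved in mixed directions. Of 23 cholesterol and fatty acid genes 12 were lower and 8 higher (median -0.20). An interval within 0.5 was found for 13 of the 23, where 62.5% of all genes had one. ACACA, which makes malonyl-CoA, lay at 10.57, 10.68 and 10.53 in LNCaP-abl, 11.74, 11.77 and 11.75 under DHT and 11.12, 11.12 and 11.17 with vehicle, below both. FASN, fatty acid synthase, fell by 0.77 ± 0.05, HMGCS1, an early cholesterol enzyme, by 0.80 ± 0.06, and the elongase ELOVL5 by 0.73 ± 0.04 (SE). The elongase ELOVL6 went up instead, at 11.86, 11.76 and 11.94 against 10.36, 10.29 and 10.38, and the sterol enzyme MSMO1 rose by 0.64 ± 0.04 (SE). FASN fell by 0.44 when its probe sets were averaged.

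Secretory genes differed little in size: of 28 ER folding and secretion genes 15 were lower and 7 higher, and the median was -0.11. Of the 28, 23 had an interval within 0.5, where 62.5% of all genes did. ERN1, the IRE1 stress sensor, had the largest fall of the list, at 8.68, 8.83 and 8.74 against 9.81, 9.77 and 9.81 under DHT and 8.77, 8.63 and 8.63 with vehicle. CREB3L4, a membrane-bound factor of secretory cells, fell by 0.67 ± 0.04, and EDEM1, which directs misfolded proteins to breakdown, by 0.63 ± 0.03 (SE). The chaperone DNAJB9 fell by 0.41 against DHT and was 0.60 above vehicle, so partly held; its most variable probe set fell by 0.26. PDIA6, a disulfide isomerase, rose by 0.34 ± 0.04 (SE).

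Of 12 polyamine genes 6 were lower and 3 higher. SMS, spermine synthase, lay at 10.18, 10.23 and 10.29 in LNCaP-abl, 12.19, 12.12 and 12.17 under DHT and 10.41, 10.43 and 10.31 with vehicle, a fall of 1.92 ± 0.05 (SE; limma adjusted p = 1.52e-15) to just under the starved level. SAT1, which starts polyamine breakdown, fell by 0.96 ± 0.04, AMD1, which supplies the aminopropyl donor, by 0.70 ± 0.04 and ODC1, which makes putrescine, by 0.27 ± 0.03 (SE). ARG2, a mitochondrial arginase, was 0.82 ± 0.03 (SE) above DHT.

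Glycolysis genes were mostly lower, 14 of 23 against 4 higher, with a median of -0.29. LDHB, the lactate dehydrogenase subunit that favours pyruvate, lay at 6.82, 6.28 and 6.93 in LNCaP-abl, 12.98, 12.99 and 12.98 under DHT and 12.98, 12.95 and 13.01 with vehicle. It fell by 6.31 ± 0.12 (SE; limma adjusted p = 1.54e-16) and its DHT response in LNCaP was 0.01. The first enzyme of the pathway, HK2, lay at 6.7, 6.74 and 6.56 against 9.59, 9.55 and 9.62 under DHT. The phosphofructokinase PFKP fell by 1.38 ± 0.05, PFKFB3 by 1.33 ± 0.05 and ENO1, an enolase, by 0.60 ± 0.04 (SE), whereas the phosphofructokinase PFKM rose by 0.42 ± 0.03 (SE). HK2 fell by 1.87 and PFKP by 0.66 when probe sets were averaged. Of the ATF4 and amino acid genes 12 of 22 were higher and 8 lower. SLC7A5, the light chain of the leucine transporter, lay at 11.75, 11.72 and 11.63 against 6.56, 6.41 and 6.46 under DHT and 6.77, 6.94 and 6.77 with vehicle. Its heavy chain SLC3A2 rose by 0.47 ± 0.04 and the serine synthesis enzyme PHGDH by 1.34 ± 0.06, while the mitochondrial enzyme SHMT2 fell by 0.96 ± 0.03 (SE).

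p53 targets had no common direction, with 9 of 21 higher and 8 lower. The death receptor FAS lay at 11.27, 11.26 and 11.27 in LNCaP-abl against 8.18, 8.07 and 8.12 under DHT, and GDF15, a stress cytokine, at 9.85, 9.85 and 9.81 against 12.83, 12.8 and 12.76. BAX, a pore-forming death effector, fell by 2.08 ± 0.07 (SE) to 6.11, 5.95 and 5.83, close to the floor. The mean of the GDF15 probe sets fell by 1.14. CDKN1A, an inhibitor of cyclin-dependent kinases, rose by 0.31 ± 0.04 (SE; limma adjusted p = 2.14e-06). MYC and ribosome biogenesis genes differed little in size: 5 of 18 were higher and 9 lower. Of the 18, 15 had an interval within 0.5, where 62.5% of all genes did. MYC itself lay at 10.58, 10.7 and 10.61 against 10.97, 10.92 and 10.88 under DHT and 11.27, 11.32 and 11.37 with vehicle. It was thus below both LNCaP groups, with differences of -0.29 from DHT and -0.69 from vehicle.

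Adhesion and guidance genes were mostly lower. Of 34 tested, 21 (61.8%) were lower and 6 higher, and the summed level of the list ran from 234.2 to 235.6 in LNCaP-abl and from 295.9 to 296.3 under DHT. SEMA3C, a secreted guidance cue, lay at 4.2, 4.41 and 4.15 in LNCaP-abl, 12.49, 12.47 and 12.53 under DHT and 11.84, 11.76 and 11.71 with vehicle. EFNB2, a membrane ligand of Eph receptors, lay at 6.1, 5.96 and 6.11 against 12.41, 12.39 and 12.46. The Eph receptors EPHA7 and EPHA3 fell by 6.25 ± 0.10 and 5.03 ± 0.10, the desmosomal cadherins DSC2 and DSG2 by 5.24 ± 0.04 and 2.30 ± 0.04, and FN1, fibronectin, by 2.87 ± 0.05 (SE). All 7 genes were also lower than in vehicle-treated LNCaP, with differences of -7.52 to -2.36, while DHT moved them there by -0.62 to 0.73. The mean of the FN1 probe sets fell by 1.88.

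Growth factor receptors and ligands exchanged members: 9 of 32 were higher and 16 lower. WNT5A, a non-canonical Wnt ligand, lay at 12.91, 12.99 and 13.02 in LNCaP-abl, 7.58, 7.47 and 7.76 under DHT and 7.78, 7.87 and 7.71 with vehicle. The ligand EGF rose by 3.62 ± 0.09 while its receptor EGFR fell by 3.25 ± 0.08, and FGFR2 rose by 2.75 ± 0.08 while FGFR3 fell by 2.03 ± 0.06 (SE). BMPR1B, a receptor of bone morphogenetic proteins, lay at 3.86, 3.84 and 3.58 against 10.48, 10.41 and 10.46. IGF1R, the receptor of insulin-like growth factor, and its adaptor IRS2 are DHT-responsive in LNCaP: IGF1R lay at 9.13, 9.31 and 9.19 in LNCaP-abl, 11.5, 11.52 and 11.63 under DHT and 8.96, 9.11 and 8.81 with vehicle. IGF1R was just above the starved level by this probe set, and IRS2 fell by 3.93 ± 0.13 (SE) to below that level. The place of IGF1R depended on the probe set. Another had means of 7.74 in LNCaP-abl, 7.88 with vehicle and 10.4 under DHT, so LNCaP-abl was below vehicle there. A further IGF1R probe set had 6.63 in LNCaP-abl, 6.84 with vehicle and 9.63 under DHT, with the same order. The remaining IGF1R probe sets, with means from 5.104 to 5.325 in every group, were near the floor. Averaging probe sets gave -0.81 for EGFR and -1.07 for FGFR3. The other probe sets of FGFR2 differed by -0.28 to 2.43.

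**Figure D4:**
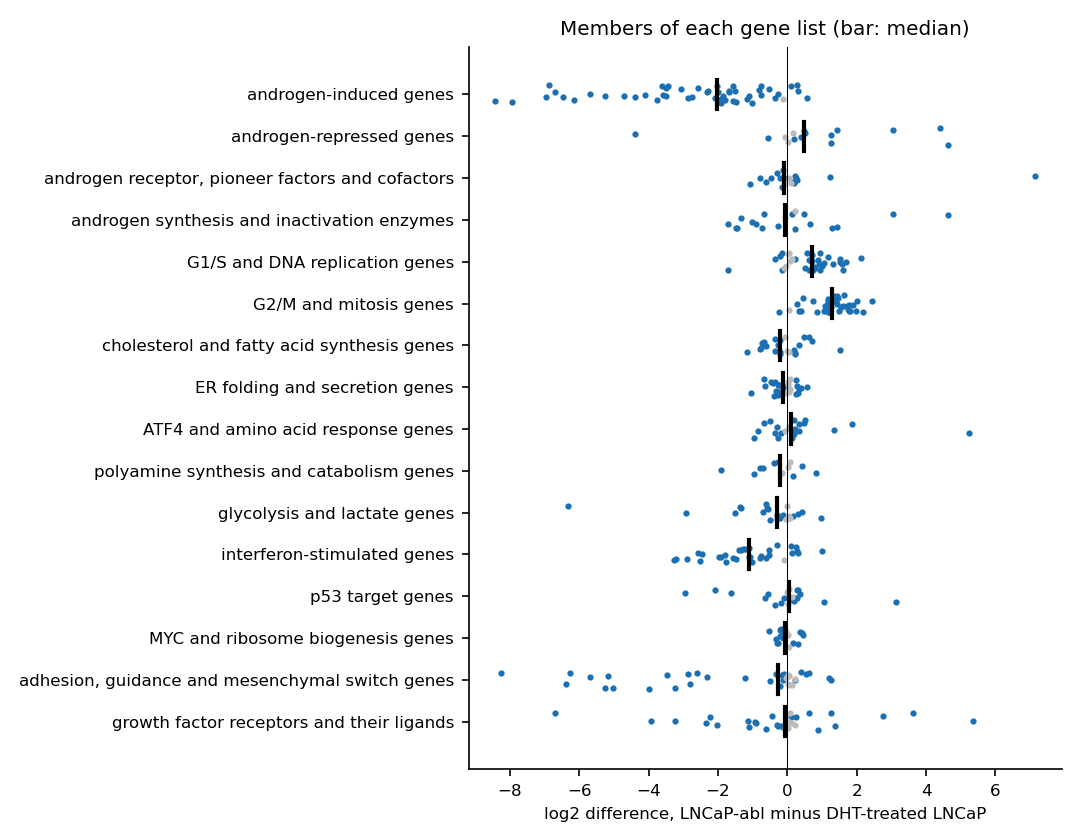
Log2 difference of LNCaP-abl from DHT-treated LNCaP for each tested member of 16 gene lists (blue points called by limma at an adjusted p under 0.05, grey points not called; vertical jitter only separates points), with the list median as a black bar. The bars stand at -2.02 for androgen-induced, -1.09 for interferon-stimulated, 0.71 for replication and 1.30 for mitosis genes, and within 0.5 of zero for the other lists.

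The 12 largest falls and 12 largest rises over all genes were near-complete changes between a floor level and a high level. TMEFF2, a membrane protein with follistatin domains, lay at 4.1, 3.92 and 3.79 in LNCaP-abl, 13.56, 13.53 and 13.57 under DHT and 13.11, 13.1 and 13.04 with vehicle. THBS1, the matrix protein thrombospondin, lay at 2.79, 2.36 and 2.81 against 11.62, 11.67 and 11.88. ETV1, the ETS factor that is translocated and highly expressed in LNCaP, lay at 3.06, 2.97 and 3.3 against 11.8, 11.81 and 11.87. All 3 were high in vehicle-treated LNCaP too, and the differences from DHT were -9.62 ± 0.06, -9.07 ± 0.16 and -8.72 ± 0.11 (SE). The microtubule protein gene MAP2 fell by 6.98 ± 0.08 and the sialyltransferase gene ST6GALNAC1 by 6.42 ± 0.09 (SE). The other members of the 12 are KLK3, SEMA3C, MAF, TRPM8, PMEPA1, BMPR1B and STEAP4, given above.

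Among the rises, CD200, an immune inhibitory ligand, lay at 12.16, 12.04 and 12.04 in LNCaP-abl, 3.67, 3.87 and 3.94 under DHT and 4.41, 4.44 and 4.41 with vehicle, a rise of 8.25 ± 0.06 (SE; limma adjusted p = 6.57e-21). FLRT3, an adhesion protein, rose by 7.73 ± 0.10, NDP, a Wnt receptor ligand, by 7.32 ± 0.09, and OR51E2, an olfactory-type receptor of the prostate, by 7.25 ± 0.09 (SE). VAV3 lay at 11.86, 11.92 and 11.82 against 5.34, 5.08 and 5.37 under DHT and 7.36, 7.12 and 7.32 with vehicle. BMP2, a bone morphogenetic protein, rose by 6.44 ± 0.09, the galactosyltransferase UGT8 by 6.49 ± 0.12, TMC5 by 7.21 ± 0.13, ST6GALNAC5 by 6.80 ± 0.12 and DOCK10 by 6.79 ± 0.07 (SE); NR3C1 and MATN2 complete the 12. Averaging all probe sets reduced several of the 24 differences: to -4.62 for TMEFF2, -3.51 for THBS1, -3.36 for ETV1, 4.14 for TMC5, 3.57 for ST6GALNAC5 and 3.81 for DOCK10. Their direction and their call did not change with that choice.

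**Figure D5:**
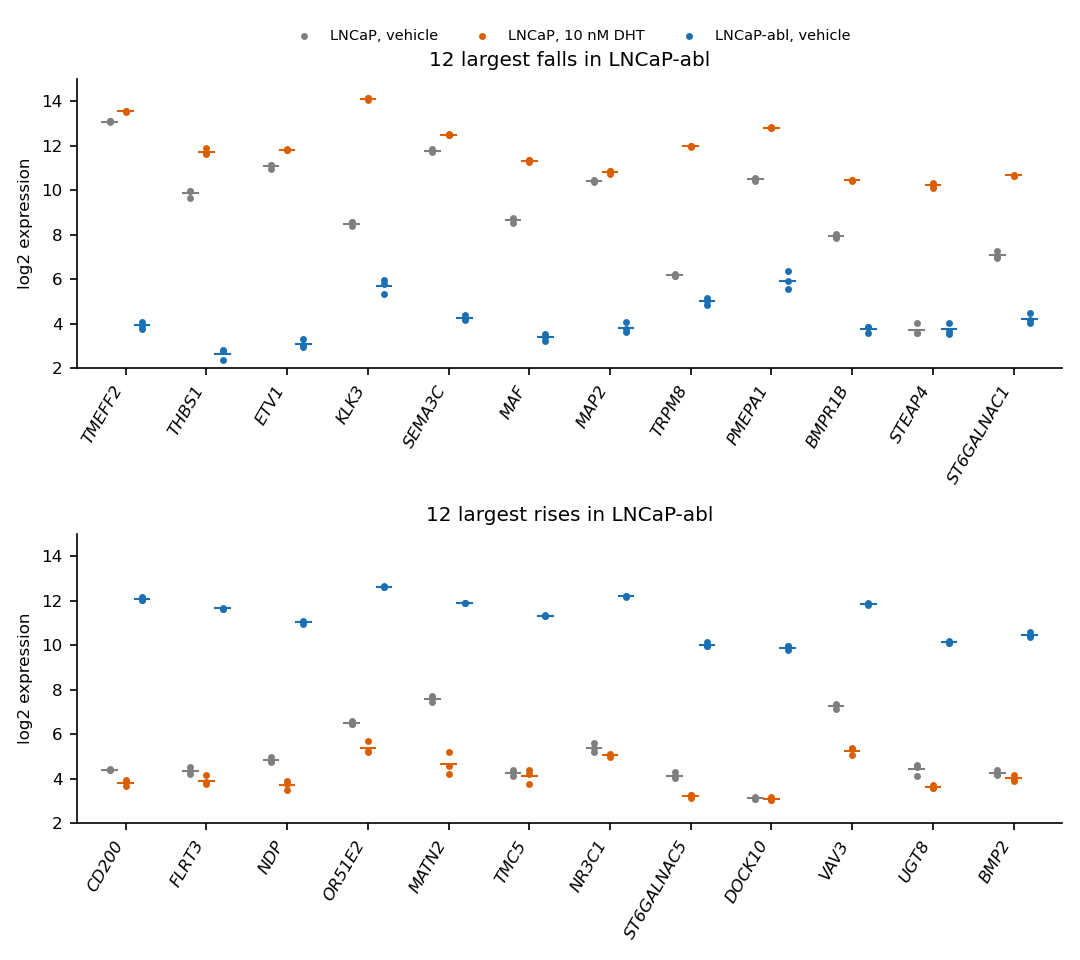
Log2 expression in each array of vehicle-treated LNCaP (grey), DHT-treated LNCaP (orange) and LNCaP-abl (blue) for the 12 genes with the largest falls (top) and rises (bottom) in LNCaP-abl against DHT-treated LNCaP; points are arrays and short lines are means of 3. Grey lies closer to orange than to blue for most genes, and STEAP4 is the gene whose grey and blue points lie at the same level.

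The contrast was repeated in the 6 arrays with TRIM24 siRNA, which are separate samples from the first 6. There 9835 genes (72.3%) were called. Of the 821 genes higher by at least 2-fold, 794 (96.7%) were called in the same direction there and 1 in the opposite one; of the 869 lower, all 869 (100%) were. A 2-fold difference was reached again by 636 (77.5%) and 791 (91.0%), where 5.17% of all genes were higher and 6.98% lower by that much. The androgen-induced list had 46 of 51 lower in both sets of arrays, with medians of -2.02 and -2.24, where 34.4% and 38.7% of all genes were lower. KLK3 fell by 8.41 with control siRNA and by 8.36 with TRIM24 siRNA, and TMPRSS2 by 2.28 and 2.24.

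The size of the contrast changed with the siRNA for 2800 genes (20.6%), tested as an interaction by limma at an adjusted p under 0.05: 770 moved up and 2030 down, of which 6 (0.0441%) and 82 (0.603%) by at least 2-fold. FKBP5 fell by 3.49 with control siRNA and by 4.21 with TRIM24 siRNA, an interaction of -0.72 ± 0.06 (SE; limma adjusted p = 7.32e-07). For KLK3 the interaction was 0.05 ± 0.19 and for TMPRSS2 0.05 ± 0.05 (SE; limma adjusted p = 0.885 and 0.569). The 95% interval of the KLK3 interaction ran from -0.35 to 0.45.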

How the data were processed

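The 18 arrays (Affymetrix, 1 colour, total RNA) form 6 groups of 3. The deposited values are on a log2 scale and come from RMA, as the submitters' processing notes list it; RMA draws arrays to a common distribution; the RMA version is not given in the sources used here. Of 54675 probe sets 41097 named a single gene in a platform annotation, which can be old; several symbols were listed for 1801 and none for 11777. Each of 19775 genes was read from its probe set with the highest mean, and 13607 whose third-highest value reached 5.88 were tested. A group-means model of all 18 arrays, with 12 residual degrees of freedom, used limma 3.58.1 in R 4.3.3 with two-sided tests and Benjamini-Hochberg adjustment over the 13607 genes. The number of arrays limits the precision. In simulated data over 13607 genes, 100 genes differed by 0.25, 100 by 0.5 and all others not at all. The fit recovered 58 and 92 of these differences, with 6 false among 156 calls. In the real arrays 67.6% of genes were called, which sets a different adjusted threshold, so these rates do not carry over to the comparison.

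Named genes were the 12 largest rises and falls, up to 8 members per list by adjusted p with up to 5 against the list's direction, up to 8 DHT-responsive genes each way and 4 per place, and a few androgen targets and regulators fixed by name. The 4 named outside this rule are said to be. Gene lists and members were chosen with earlier results of these data known. Some list members are not reported here. Alternatives were the low-value filter, the probe set of a gene, scaling, the arrays in the fit, the variance model, array weights, a replicate block, thresholds and each array left out.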

Additional observations from a re-analysis of the deposited data

Results flagged for a closer look

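The difference between LNCaP-abl and DHT-treated LNCaP changed with the siRNA for 2800 genes by a test of the difference itself. Among the genes whose values were given with both siRNAs, the change was -1.12 for UBE2C, -1.20 for NUSAP1, -1.23 for RRM2, -0.89 for MCM2 and -0.72 for FKBP5, in log2 units with TRIM24 siRNA minus control siRNA. For OAS1 it was 0.77. These cell cycle genes were thus closer to their DHT level with TRIM24 siRNA, FKBP5 was further below it and OAS1 was less far below it. Not every cell cycle gene was closer, as CDK6 went from -1.71 to -3.13. Each siRNA had its own DHT arrays, so a change can come from either group. For UBE2C, NUSAP1, RRM2, MCM2 and FKBP5, all LNCaP-abl arrays with TRIM24 siRNA were below those with control siRNA. That order was not found for OAS1.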

How the results depend on the processing

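Called genes, their directions, 2-fold differences and calls with TRIM24 siRNA stayed within 1.5 times the reported counts under every alternative in which they were recomputed. The exceptions concern other counts. Without a filter 13773 genes were close to the DHT level, as more genes were tested. At an adjusted p under 0.01 the contrast changed with the siRNA for 1586 genes. With the mean of probe sets, LNCaP-abl lay at or beyond the DHT arrays for 9 induced genes instead of 20, and at or beyond vehicle for 58 repressed genes instead of 97. With DHT-responsive genes chosen at 1.5-fold, which takes more genes, the induced genes numbered 73 at or beyond DHT, 141 between and 349 at or beyond vehicle, and the repressed genes 185, 98 and 294. Some list medians also moved. For adhesion and guidance genes the median was -0.28 as reported and -0.07 without a filter. It was -2.30 with a stricter filter, -0.56 with the mean of probe sets and -0.78 with the most variable probe set. For androgen synthesis and inactivation enzymes it went from -0.07 to -0.67 with the stricter filter. Leaving out 1 array gave 8756 to 9003 called genes, 4250 to 4429 higher and 4446 to 4652 lower, 1687 to 1696 at 2-fold, 8174 to 8315 close to DHT, 9796 to 9879 with TRIM24 siRNA and 2367 to 2736 interactions. The places were then 20 to 21, 77 to 82 and 170 to 175 for induced and 55 to 62, 45 to 51 and 96 to 97 for repressed genes. Deviations of same-numbered arrays of both groups had correlations of -0.035, -0.031 and 0.155, and other pairs of arrays had -0.119 to 0.133. So few pairs cannot show whether the replicate numbers pair the arrays. With the number as a block 9137 genes were called. Of 150 named genes 141 kept their direction and their side of the threshold in each of the 17 alternatives in which they were tested. Some genes were not tested in every alternative, and a missing value was not counted as a change. KLK15 reversed to -0.31 and -1.24 and PFKFB2 to -0.31 and -1.01 with the mean and the most variable probe set; the cause was not tested. Levels near the floor limit the size of the largest differences.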
